A study of Drosophila melanogaster with 2 samples.

Results

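The peaks in 3′ untranslated regions (3′ UTRs) described here are 716 of the 30000 peaks of a pooled peak list, 2.39% of them (exact 95% interval 2.22 to 2.57%). They were chosen by position alone. The summit, the base of highest signal in a peak, lay more than 500 bp from any annotated transcription start site (TSS), in no 5′ UTR and in no coding sequence, and inside a 3′ UTR of a protein-coding gene in the Ensembl annotation of BDGP6. The data, from chromatin immunoprecipitation followed by sequencing (ChIP-seq), come from whole Drosophila melanogaster embryos aged 0 to 12 h, of 1 transgenic line in which a green fluorescent protein (GFP) tag was fused to the C-terminus of CG2202, precipitated with an antibody against GFP. CG2202 is a protein that the RefSeq annotation lists as uncharacterized. The 2 biological replicates form the single group, so no genotype or treatment was compared, and whole embryos mix all cell types present. The labels do not name the promoter that drives the tagged gene. Each replicate has its own list of 30000 peaks, and a further list of 3571 peaks was thresholded by the authors on the irreproducible discovery rate (IDR), a measure of how well peak ranks repeat between replicates. Signal is the peak caller's own value, used within a list. Lists cut at the same length cannot be read as numbers of binding sites, and the read depth behind them is unknown. Among the 716 peaks, those nearest the 500 bp limit were at Zdhhc8 and CG42676, both 502 bp from a TSS, with signals of 27.4 and 38.9. The nearest 3′ UTR summits left out were at Mrgn1 and aqz, 499 and 498 bp from a TSS, with signals of 34.6 and 29.8.

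The 3′ UTR is the stretch of a messenger RNA between the stop codon and the cleaved, polyadenylated end. In the RNA it carries the signal for polyadenylation and the sites read by microRNAs and RNA-binding proteins, and several fly genes lengthen it in neurons. ChIP-seq reads the underlying DNA, where RNA polymerase II passes the end of the coding sequence and, in a compact genome, nears the next gene.

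The 6 strongest of these peaks are shown by the 30 bases around the summit, 15 before it and 15 from it on, on the plus strand of the RefSeq Release 6 assembly (dm6), to show how unlike the sites are. Capitals mark the words of a list of 12 that the windows hold, on either strand. The capitals in Cals are TTTATT, the reverse complement of the polyadenylation signal, which reads AATAAA. Those in CG5715 are overlapping matches of GATAA with the word ATTTA and its reverse complement, which is also the match in CG9837. Those in pros are TTATC, the reverse complement of GATAA.
Cals, chr4:1113319-1113348: aaaactgctgcaatatgctttgtTTTATTg
CG5715, chr3R:24293353-24293382: acaattgattgttgatGATAAATATTTAtg
CG7872, chrX:15579794-15579823: cacattcgcgtgtttcctaactaacttgac
pros, chr3R:11392954-11392983: tcggccaaacaggaagtggtttTTATCgca
CG9837, chr3R:8808643-8808672: aTAAATcaatacttcacgaaaatgattgca
CG5984, chr3R:27246473-27246502: tgctagtgtttaaaatgtattattactttt
Of the 30 bases, G or C made up 6 at CG5715 and at CG5984, 8 at CG9837, 9 at Cals, 13 at CG7872 and 14 at pros. Cals is encoded on the minus strand, so the TTTATT shown there reads AATAAA in its transcript. At CG7872 and CG5984 no word of the list lay in the 30 bases.

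Peaks in 3′ UTRs were weak and sparse. Their median signal in the pooled list was 35.6 (quartiles 29.5 to 46.6), against 44.5 (33.1 to 73.9) for the other 29284 pooled peaks, and the strongest reached 398 against 2323.5 in the whole list. Bases that meet the rule made up 4.43% of the 6 chromosome arms, so 3′ UTRs held 0.538 times the summits their length would give if summits were spread evenly. This ratio was 0.477 in the list of replicate 1 and 0.794 in that of replicate 2. The pooled list had 121 summits per Mb of 3′ UTR and 97.2 per Mb in coding exons. It had 219 per Mb in the intergenic sequence of the first 1000 bp past a gene's end, here called the downstream flank. The shortfall was largest among the strongest peaks, and coding exons showed the same trend. Coding exons, with 13.8% of the bases, held 0.20% of the 1000 strongest pooled summits and 12.7% of the 5000 weakest. In the pooled list, 3′ UTRs held 5 of the 1000 strongest summits, 0.50%, and 0.778% of the other summits of the top 3571. The 1000 strongest are 3.33% of the list, and 5 of 716 is 0.698%. The share of summits in 3′ UTRs was 2.72% in the band of 5000 that starts past rank 15000, 3.28% (2.80 to 3.81%) in the next 5000 and 4.22% (3.68 to 4.81%) among the 5000 weakest. In the pooled list the interval of this last band alone held the 4.43% of bases, and in replicate 1 the weakest band was still below it, at 3.30% (2.82 to 3.83%). In replicate 2 the weakest band was above the share of bases, at 5.12% (4.53 to 5.77%). So was the band before it in replicate 2, at 5.06% (4.47 to 5.70%). The shortfall among weak peaks therefore depended on the list.

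**Figure D1:**
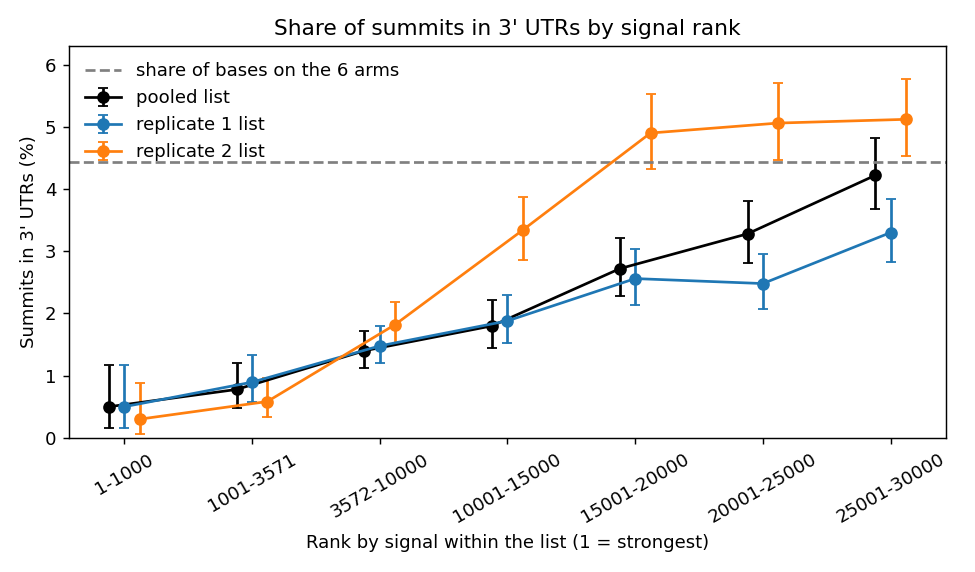
Share of summits in 3′ UTRs (percent) within bands of signal rank, for the pooled list (black) and the lists of replicate 1 (blue) and replicate 2 (orange); bars are exact 95% binomial intervals and the dashed line is the 4.43% of bases that meet the rule. The share is at or below 0.895% in both bands of the strongest 3571 summits of each list, and in the weakest band it is 4.22% in the pooled list, 3.30% in replicate 1 and 5.12% in replicate 2.

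Measures of strength were lower in 3′ UTR peaks than in all other pooled peaks, in introns and in the downstream flank, and higher than in coding exons. The IDR list held 25 of the 716 peaks, 3.49% (2.27 to 5.11%), where 11.9% of all pooled peaks were in that list. It held 12.1% of the other pooled peaks (odds ratio 0.263, 0.176 to 0.392, adjusted p = 2.09e-15 by Fisher's exact test). The IDR list is the top 3571 pooled peaks by signal, so this is a statement on signal. Among 11550 intron summits the share was 11.3% (odds ratio 0.285, adjusted p = 4.82e-13 by Fisher's exact test), and among 671 summits of the downstream flank it was 11.2% (odds ratio 0.288, 0.180 to 0.458, adjusted p = 4.44e-08 by Fisher's exact test). Of 1789 coding-exon summits, 7 were in the IDR list, 0.391%, which gave an odds ratio of 9.21 for 3′ UTRs (3.97 to 21.4, adjusted p = 1.01e-08 by Fisher's exact test). Coding-exon summits are richer in G and C, with a median GC content within 50 bp of 54.5%, against 38.6% in 3′ UTRs. Within 20 strata of GC content the Mantel-Haenszel odds ratio against coding exons was lower, 4.97 (1.51 to 16.4), and still passed. By these shares the 3′ UTR stood between the coding exon before it and the flank after it. In both replicate lists taken alone, with the top 3571 peaks in place of the IDR list, all 4 comparisons kept their direction and passed.

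By the caller's q-value and by the median signal, 3′ UTRs again stood above coding exons and below all other peaks, introns and the flank. A q-value under 0.05 was reached by 171 of the 716 peaks, 23.9% (20.8 to 27.2%), where 44.0% of all pooled peaks reached it. The shares were 44.5% of the other peaks, 41.2% of intron summits, 45.2% of flank summits and 7.32% of coding-exon summits. The odds ratios for 3′ UTR peaks against these were 0.391, 0.448, 0.381 and 3.97, and the largest of the 4 adjusted p-values was 1.18e-16 by Fisher's exact test. Signal was above the pooled median in 205 of the 716, 28.6%, where 50% of all pooled peaks are above it by construction. The shares were 47.4% in introns, 50.7% in the flank and 12.0% in coding exons, and all of these differences passed (Fisher's exact test, largest adjusted p = 9.88e-17). Both measures rest on the same reads as the signal and are not independent of it. Peaks are not replicates of the experiment, so the p-values are about the lists and say nothing of the spread from collection to collection.

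**Figure D2:**
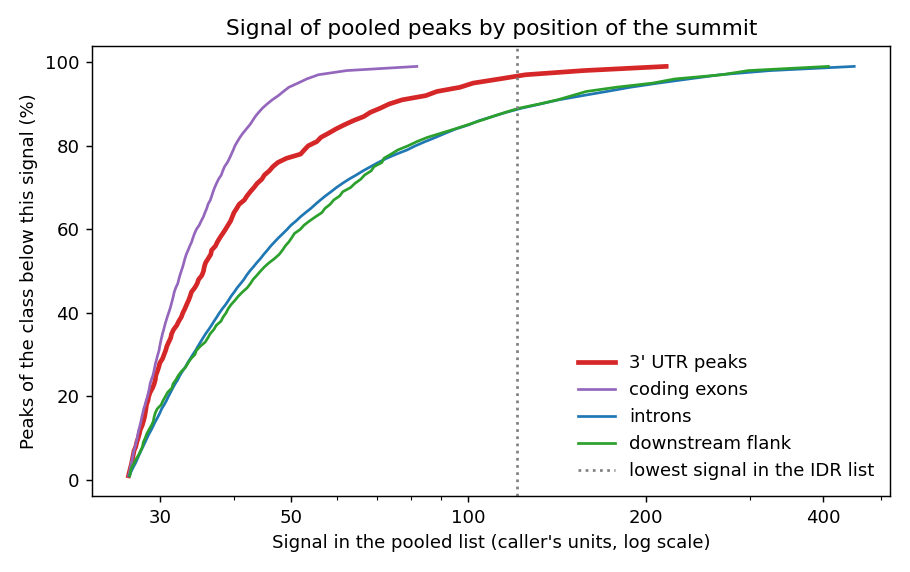
Cumulative percent of pooled peaks (vertical axis) below a given signal in the caller's units (horizontal, log scale), for 3′ UTR peaks (red), coding exons (purple), introns (blue) and the downstream flank (green), from the percentiles 1 to 99; the dotted line is the lowest signal of the IDR list, 121. The red curve, with a median of 35.6, runs between that of coding exons (32.6) and those of introns (42.6) and the flank (44.4).

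The 3′ UTR summits close to a TSS, which the rule leaves out, were stronger than those it keeps. They were close to the pooled list as a whole. Of 188 summits in 3′ UTRs and within 500 bp of a TSS, 19 were in the IDR list, 10.1%, and their median signal was 45.1. For the 3′ UTR peaks kept by the rule these values were 3.49% and 35.6, and for all pooled peaks 11.9% and 44.1. By the order of classes used here, the 188 count as promoter summits. The median signal of all promoter summits was higher, 55.7. None of these differences was tested. Whether the nearby TSS belongs to the host gene or to another gene was not counted.

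Replicate support was weaker than for other peaks. Overlap with a replicate list cut at 30000 peaks is not independent of signal. The median pooled rank was 20349.5 for 3′ UTR peaks and 14843.5 for the others, and no comparison at like signal was made. A peak of replicate 1 overlapped 420 of the 716 by 1 bp or more, 58.7% (55.0 to 62.3%), where 77.6% of all pooled peaks were overlapped. Among the other pooled peaks 78.0% were overlapped (odds ratio 0.40, adjusted p = 2.95e-29 by Fisher's exact test). A peak of replicate 2 overlapped 489, 68.3% (64.7 to 71.7%), where the figure for all pooled peaks was 76.1%, and for the others 76.3% (odds ratio 0.669, adjusted p = 1.92e-06 by Fisher's exact test). With summits required to lie within 100 bp of each other, the shares in 3′ UTRs were 45.9% in replicate 1 and 52.8% in replicate 2, against 61.6% and 60.2% for the others. Both replicate lists overlapped 264 of the 716 (36.9%), 1 of them overlapped 381, and neither overlapped 71 (9.92%), where 4.65% of all pooled peaks were in neither. Against coding exons, the replicate 1 share was not told apart (60.4%, odds ratio 0.931, 0.781 to 1.11, adjusted p = 0.443 by Fisher's exact test), and the replicate 2 share was higher in 3′ UTRs (53.4% in coding exons, odds ratio 1.88, adjusted p = 1.01e-11 by Fisher's exact test). The replicate 1 odds ratio was 2.70 and passed when replicate peaks were limited to a q-value under 0.05 (adjusted p = 4.41e-15 by Fisher's exact test), and it was 1.17 within strata of GC content, where it did not pass. The replicate 2 difference did not pass within those strata, where the Mantel-Haenszel odds ratio was 1.27.

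The replicates differed in how much of their own lists fell in 3′ UTRs. Replicate 1 had 634 such summits among its 30000, 2.11%, and replicate 2 had 1056, 3.52%. Among the top 3571 peaks the order was the other way, with 28 in replicate 1 and 18 in replicate 2. Of the 634 summits of replicate 1, 41.6% were overlapped by a peak of replicate 2, against 58.9% of its other summits. Of the 1056 of replicate 2, 26.4% were overlapped by a peak of replicate 1, against 57.7% of its other summits. Base composition moved with this. Median GC within 50 bp of the summit was 40.6% in the 3′ UTR summits of replicate 1 and 34.7% in those of replicate 2, and 43.6% and 38.6% over the whole lists. The part of composition in the replicate difference was not tested.

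**Figure D3:**
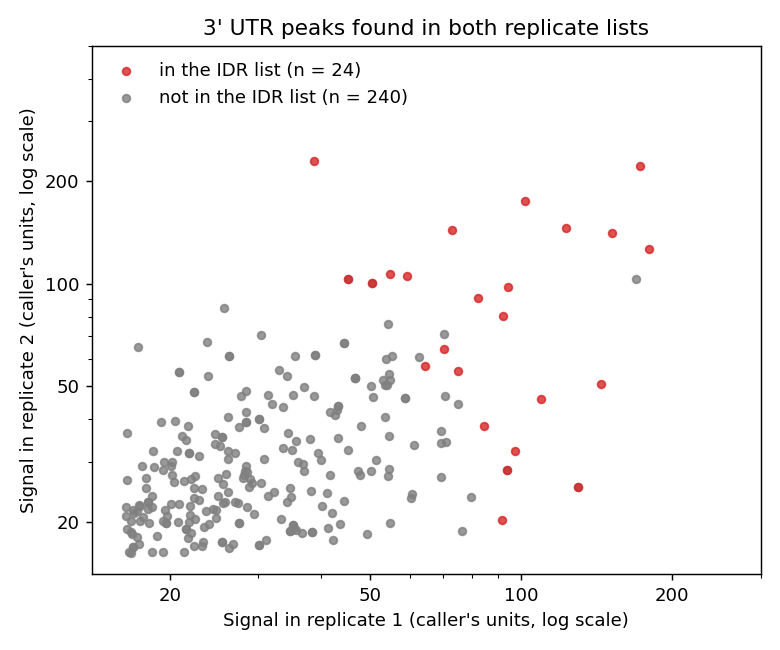
Signal in replicate 1 (horizontal) against signal in replicate 2 (vertical), both in the caller's units on log scales, for the 264 3′ UTR peaks overlapped in both lists, with the 24 in the IDR list in red and 240 others in grey. The points spread widely around a common trend (Spearman's rho 0.498 across peaks), and the 1 grey point over 100 in both replicates is at Cyp4d20, whose own pooled signal is 28.3.

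Across these 264 peaks Spearman's rho of the replicate signals was 0.498, and it was 0.616 over all 17502 pooled peaks with a match in each list. Both are descriptions over peaks that share the same 2 libraries. The matched replicate peak is not always the same site. In 52 of the 264, another 3′ UTR peak was matched to the same pair of replicate peaks, and at Cyp4d20 the matched peaks belong with a summit of the IDR list 203 bp away. The 5 peaks whose ranks differed most were at D1, the gene of an AT-hook chromosomal protein (rank 27843 in replicate 1 and 3645 in replicate 2), Sec24AB, a COPII coat gene (29836 and 8726), ths, a fibroblast growth factor gene (2583 and 23676), the tetraspanin-family gene TM4SF (5248 and 24500) and CG13949 (1903 and 21121). Replicate 1 was the higher in 3 of them and replicate 2 in 2.

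The 25 peaks of the IDR list lay in 25 different host genes, 12 of them known only by a CG number. The strongest was at 4 1113154 to 1113462, in the 2953 bp 3′ UTR of Cals (FBgn0039928), which encodes calsyntenin, a neuronal cadherin-family membrane protein. Its signal was 398, with 173 in replicate 1 and 222 in replicate 2, and it ranked 583 and 446 there. It was the only one of the 716 on arm 4, its nearest other pooled summit was 26207 bp away, and the convergent gene sv, which overlaps the end of Cals, lay 17 bp past the summit. CG5715 (3R 24293247 to 24293483) came next, with a pooled signal of 304 and replicate signals of 180 and 126. Its summit lay 2 bp from the gene end and also in the 3′ UTR of the convergent gene Uck, a uridine-cytidine kinase gene. CG7872 (X 15579692 to 15579907) had 295, with 152 and 141 in the replicates, and a summit 48 bp from the gene end. Both replicates therefore ranked these 3 within their top 1327.

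The fourth differed between the replicates. The peak at pros (3R 11392882 to 11393100), the gene of the homeodomain protein Prospero, which acts in neural fate, had a pooled signal of 292 and a signal of 205 in replicate 1, where it ranked 428, and no peak of replicate 2 overlapped it. Its summit lay 227 bp from the end of a transcript but 14658 bp from the end of the gene, since pros has longer annotated forms. CG9837 had 273 (123 in replicate 1 and 146 in replicate 2). CG5984 had 268, but only 38.7 in replicate 1, where it ranked 7835, and 229 in replicate 2, where it ranked 419. The peak at scf, which encodes the calcium-binding supercoiling factor, had 267 (102 and 175) and lay 17 bp from the gene end, with the convergent gene Rac1 507 bp on. CG33307 had 220 (72.9 and 144) and lay inside the convergent gene CenG1A. Hr4, the gene of a nuclear receptor of the ecdysone response, had 195 (144 and 50.8), and qvr, whose product quiver regulates potassium channels and sleep, had 186 (94.3 and 97.6).

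The other 15 had pooled signals from 121 to 176. In order they were at CG5895, CG13739, CG2082, stas, REG, CG14440, CG4004, Fbxl4, bun, Rbp9, by, fne, ETHR, CG9784 and CG13949. Among them REG encodes the gamma activator of the proteasome, bun a TSC-22 family transcription regulator, by the fly tensin, an integrin adaptor, and ETHR the receptor of ecdysis triggering hormone. All 25 had a peak in the replicate 1 list and 24 in that of replicate 2, and 9 were within the top 3571 of both, 20 within that of replicate 1 and 14 within that of replicate 2. The first peaks below the IDR list were at lwr, with 120 (the gene of the SUMO-conjugating enzyme), and Tmep, with 117.

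**Figure D4:**
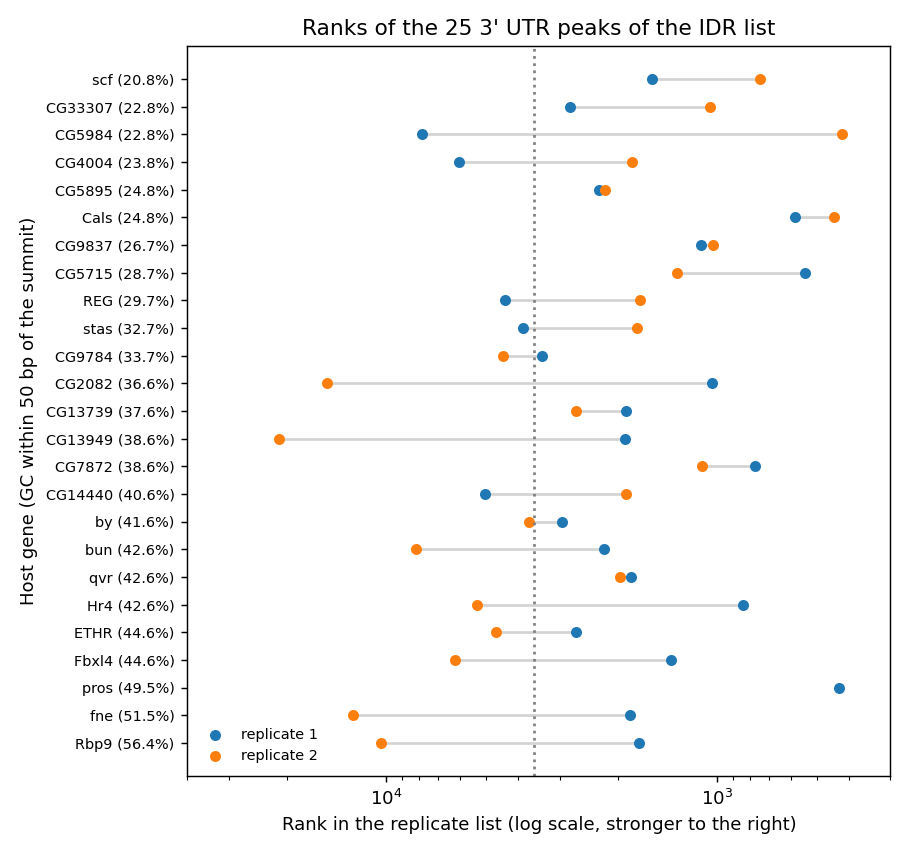
Rank in the list of replicate 1 (blue) and of replicate 2 (orange), on a log scale with stronger ranks to the right, for the 25 3′ UTR peaks of the IDR list, sorted by the GC content within 50 bp of the summit, lowest at the top; the dotted line is rank 3571 and pros has no replicate 2 peak. Orange lies right of blue in 8 of the 9 peaks with GC under 30%, and blue lies right of orange in 8 of the 9 with GC of 40% or more that are in both lists.

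Which replicate ranked an IDR peak higher moved with base composition. Of the 9 with GC under 30%, replicate 2 ranked 8 higher and replicate 1 ranked 1 higher, CG5715. Of the 6 with GC from 30 to 40%, replicate 1 ranked 5 higher, and of the 9 with GC of 40% or more that were in both lists, it ranked 8 higher. The extremes were Rbp9 at 56.4% GC, ranked 1726 in replicate 1 and 10422 in replicate 2, and scf at 20.8%, ranked 1575 in replicate 1 and 745 in replicate 2. The split by GC was chosen after these values were seen. Over all 264 peaks in both lists the relation was weak, with a Spearman's rho of -0.10 between GC and the replicate 1 rank minus the replicate 2 rank, and it was -0.19 over the 17502 pooled peaks in both. Of the 374 peaks with GC at or below the median, a replicate 2 peak overlapped 73.0% and a replicate 1 peak 53.2%. Of the 342 above it, the shares were 63.2% and 64.6%.

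The peaks lay along the 3′ UTR much as its bases do. The median distance from summit to the end of the host gene was 500 bp (quartiles 190 to 1162), against 610 bp (211 to 1600) over all 5934668 bases that meet the rule, and to the end of the host transcript it was 365 bp against 366 bp. A summit lay within 200 bp of the gene end in 190 of the 716, 26.5% (23.3 to 29.9%), against 24.1% of bases. The median position was 61.7% of the way from the stop codon, against 59.1% of bases. The exception was the far side. Summits within 1000 bp of the gene end made up 72.2% (68.8 to 75.5%), against 63.4% of bases, and those 3200 bp or more away were fewer than bases, with 28 peaks from 3200 to 6399 bp (3.91% against 7.07%) and 20 beyond (2.79% against 4.76%). Median length of the host 3′ UTR was 993 bp, against 1077 bp for the bases.

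**Figure D5:**
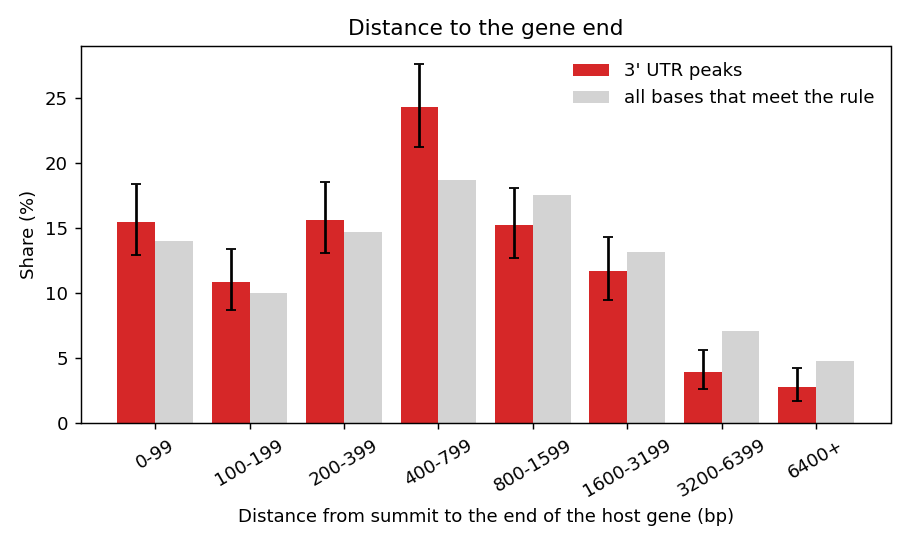
Percent of the 716 3′ UTR peaks (red, with exact 95% binomial intervals) and of all bases that meet the rule (grey) by distance from the summit or base to the end of the host gene in bp. The interval of the red bar lies above the grey bar at 400 to 799 bp, 24.3% against 18.7%, and below it in both classes from 3200 bp on, while the other 5 intervals hold the grey value.

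The next gene was close, as it is for 3′ UTR bases in general. The next protein-coding gene in the direction of transcription lay at a median of 1238 bp from the summit, against 1407 bp for bases. It lay within 500 bp or held the summit in 188 of the 716, 26.3% (23.1 to 29.6%), against 26.5% of bases. A second gene of any kind held the summit in 86, 12.0%, against 11.9% of bases, and 3′ UTRs of several genes did in 25. Where no second protein-coding gene held the summit, the next gene was convergent, on the opposite strand, in 334 of 644, 51.9% (47.9 to 55.8%), against 56.6% of bases, and tandem in the remaining 310. Among the 25 IDR peaks, the next gene, or the one holding the summit, was convergent in 16 and tandem in 9. Counted in the same way, it was convergent in 386 of all 716 peaks, 53.9% (50.2 to 57.6%). Another pooled summit lay within 500 bp of 137 of the 716 (19.1%), against 28.3% of the other pooled peaks. Another summit of the IDR list lay within 500 bp of 7 (0.978%), against 3.33% of the others. The others include 9651 promoter summits, and promoters hold 45.3% of the IDR list. The rule keeps the 716 more than 500 bp from a TSS, so these neighbour shares cannot set 3′ UTRs apart from other sites away from promoters. A comparison with other summits under the same TSS limit was not made.

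None of 6 splits of the 716 by position, host or composition passed for signal above the median. The median signal was 35.4 within 200 bp of the gene end and 35.6 farther away (odds ratio for signal above the median 0.972, 0.697 to 1.35, adjusted p = 1 by Fisher's exact test). It was 35.6 with a convergent and 35.0 with a tandem next gene (odds ratio 1.07, 0.797 to 1.44), and 35.3 inside a second gene and 35.6 elsewhere (1.00, 0.637 to 1.57). It was 37.4 in the 166 peaks whose host had an IDR summit within 500 bp of a TSS and 35.0 in the 550 others (odds ratio 1.37, 0.966 to 1.94, adjusted p = 0.368 by Fisher's exact test). High GC and an intron of another transcript at the summit gave odds ratios of 1.25 and 1.34, each with Fisher's exact test and an adjusted p of 0.368. By unadjusted p, 0 of the 6 were under 0.05.

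The 716 peaks lay in 605 host genes, 5.48% of the 11039 protein-coding genes with bases that meet the rule. A single peak lay in 518 hosts, 2 in 73, 3 in 9 and 4 or more in 5. Hosts were frequent among long 3′ UTRs, but the peaks per length were not. Genes with under 250 such bases were hosts in 1.25% and had 0.115 peaks per kb, those with at least 500 but under 1000 in 9.62% with 0.145 per kb, and those with 3000 or more in 26.4% with 0.0920 per kb. An IDR summit stood at a TSS of 135 of the 605 hosts, 22.3% (19.1 to 25.8%), and of 1541 of the 10434 genes without a peak there, 14.8%. Hosts have longer 3′ UTRs, and the part of gene length in this difference was not tested. For the 25 hosts of IDR peaks the count was 4 (Fbxl4, bun, by and CG13949), 16.0%, and 14 of the 25 (56.0%) had a pooled summit at a TSS, against 77.0% of all hosts and 55.3% of genes without a peak. By arm, 22.5% of the peaks were on 2R, which has 16.9% of the bases, and 0.140% on arm 4, which has 1.63%.

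The host with most peaks was corto (FBgn0010313), which encodes a chromatin protein that interacts with Polycomb and trithorax group proteins. Its 3′ UTR of up to 6594 bp on 3R held 9, with pooled signals from 28.0 to 75.9, and none was in the IDR list. They lay from 1077 bp past the stop codon to the last base of the gene. The strongest, at 3R 5078387 to 5078786, ranked 13426 in replicate 1 and 6064 in replicate 2. One replicate alone supported 3 of the 9, and both supported the rest, a pair of which were matched to the same replicate peaks. The other hosts, with 4 each, were CG1888, with signals from 29.6 to 83.1, Inx2 (31.4 to 69.3), which encodes the gap junction protein innexin 2, para (29.2 to 67.2), the voltage-gated sodium channel gene, and Hrb27C (28.3 to 60.7), which encodes an RNA-binding hnRNP protein. None of their peaks was in the IDR list either. The peaks of these hosts and of corto are too few to set 0 apart from the 3.49% of the 716.

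Genes known for regulation through the 3′ UTR were looked up by list, and the share of hosts in a list is to be read beside the 5.48% of all genes and the length of its 3′ UTRs. Of 11 genes known for longer 3′ UTRs in the nervous system, 6 were hosts, with 11 peaks. These genes have 78853 bases that meet the rule, so they held 0.140 peaks per kb, against 0.121 over all genes, and the median signal was 31.4, against 35.6 over the 716. The strongest were at fne (128), elav (88.5), mei-P26 (53.4), which encodes a TRIM-NHL growth regulator, and brat (35.4), a translational repressor gene. The peak of fne was the only one of the 11 in the IDR list, and it ranked 1837 in replicate 1 and 12668 in replicate 2. The peak of elav had 43.1 in replicate 1 and 42.5 in replicate 2, and lay 6694 bp from the end of the gene, inside the convergent gene arg. The peaks of AGO1 and Imp had at most 31.4, and a replicate 1 peak overlapped none of them.

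The RNA-binding list had hosts in 8 of 29 genes, with 16 peaks, 0.139 per kb and a median signal of 35.1. It shares the hosts brat, elav, fne and Imp with the previous list. It also contains Rbp9, and fne, elav and Rbp9 encode the ELAV family of neuronal RNA-binding proteins, known to bind U-rich stretches of 3′ UTRs and to act in their lengthening. All 3 were hosts, with 7 peaks between them, and these were singled out after the values were seen. The peak of Rbp9 had a signal of 137, with 97.4 in replicate 1 and 32.2 in replicate 2. The peaks of fne and Rbp9 in the IDR list were both ranked far higher in replicate 1. The pair of peaks at fne lay 204 bp apart and matched the same replicate peaks. Hrb27C (60.7) followed.

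The other lists were smaller in peaks. None of 8 maternal genes regulated through the 3′ UTR, among them osk, grk and bcd, and none of 4 proapoptotic genes, hid, rpr, grim and skl, held a peak, but these lists have only 10315 and 3669 bases that meet the rule. In the lists that did hold peaks, the share of hosts was above the 5.48% of all genes. Most of these lists are so short that a few hosts are enough for that, and lists without a peak are left out of it. By length, the adhesion and actin lists were below the 0.121 peaks per kb of all genes, and the other lists with peaks were above it. None of this was tested. The Enhancer of split and Bearded list had 2 of 15 (13.3%, 0.503 peaks per kb), Ocho (44.7) and E(spl)m6-BFM (30.6). Hox genes had 2 of 8 (25%, 0.171 per kb), Antp (37.2) and Ubx (28.5). Cytoplasmic ribosomal protein genes had 5 of 69 (7.25%, 0.266 per kb), with RpS26 (54.9), RpL19 (46.3), RpLP2 (39.9) and RpS15 (30.3) among them. Adhesion genes had 2 of 21 (9.52%, 0.0412 per kb), robo1 (36.7) and Dscam1 (29.5). Ligands and receptors had 5 of 24 (20.8%, 0.220 per kb), with bnl (52.8), the fibroblast growth factor gene of tracheal branching, spi (38.5), dpp (31.5) and fz2 (29.9). Actin genes had 2 of 21 (9.52%, 0.101 per kb), chic (77.7), the profilin gene, and Act5C (66.5), both found in both replicates. The summits of chic and Act5C lay 193 and 216 bp from the gene end. These 8 lists held 19 peaks in all, too few to set 0 in the IDR list apart from the 3.49% of the 716.

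Summits in 3′ UTRs were less AT-rich than 3′ UTRs as a whole and more AT-rich than the other pooled peaks. They were close in this to intron and flank summits. Median GC within 50 bp was 38.6% (quartiles 32.7 to 44.6%), against 34.7% (28.7 to 40.6%) in windows of the same length centred on every base that meets the rule, and 41.6% in the other pooled peaks. By class, median GC was 39.6% in introns and 39.6% in the downstream flank. It was 41.6% in promoters and 54.5% in coding exons. Of 12 words searched on both strands within 50 bp, 2 differed from other pooled peaks after adjustment. TGTANATA, the Pumilio recognition element, was in 8.94% of the 3′ UTR windows, where 4.83% of all pooled peaks hold it, and in 4.73% of the other peaks (odds ratio 1.98, 1.52 to 2.57, adjusted p = 2.77e-05 by Fisher's exact test). It was in 8.76% of the windows of all 3′ UTR bases, so the share at summits was that of 3′ UTR sequence. CACACACA was in 5.17% (3.66 to 7.05%), where 3.08% of all pooled peaks hold it, and in 3.03% of the others (odds ratio 1.74, 1.24 to 2.44, adjusted p = 0.0171 by Fisher's exact test). It was in 3.07% of the windows of all 3′ UTR bases, below the interval at summits.

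The polyadenylation signal was not told apart from other peaks. AATAAA lay in 23.0% of the 716 windows, where 21.5% of all pooled peaks hold it, and in 21.5% of the other peaks (odds ratio 1.09, 0.917 to 1.30, adjusted p = 0.445 by Fisher's exact test). It was in 27.5% of the windows of all 3′ UTR bases. Read by strand, it was on the strand of the host in 102 windows (14.2%) and on the other in 77 (10.8%), against 17.5% and 12.4% of the windows of 3′ UTR bases. Within 200 bp of the gene end, where the signal itself lies, it was on the host strand in 54 of 190 and on the other in 26. The share among all 3′ UTR bases that near a gene end was not counted, so these counts do not set the peaks apart from gene ends in general. TTTAAAAA was in 1.54%, against 3.08% of the others (odds ratio 0.491, adjusted p = 0.0557 by Fisher's exact test) and 3.66% of the windows of 3′ UTR bases. The other 8 did not pass either. ATTTA, the core of AU-rich elements, was in 44.4%, where 40.1% of all pooled peaks hold it, and in 52.2% of the windows of 3′ UTR bases. TTTAAAAA is held by 3.04% of all pooled peaks. The second polyadenylation hexamer ATTAAA was in 14.8% (16.4% of all pooled peaks), GATAA in 19.6% (20.7%), GAGAG, read by GAGA factor, in 9.64% (12.4%) and a run of 8 A in 4.89% (5.41%). TATCGATA, the core of the element bound by DREF, was in 2 windows (1.04% of all pooled peaks), the E-box CACGTG in 4 (1.15%) and CAGGTAG, bound by Zelda, in 3 (0.533%). A word in a window is a match of letters only.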

How the data were processed

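ChIP-seq peak lists of 2 biological replicates of 1 group were analysed. The deposited descriptions say that a replicate's list was called on its alignment with a control, the pooled list on both alignments, and the IDR list from the other 3, all on dm6. Which aligner and caller, and what IDR threshold, is not given in the sources used here. The signal value and the −log10 q-value are the authors' deposited values. Replicates are labelled as biological. Read depth is unknown, so intervals cover counting of peaks only.

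Genes and TSSs came from Ensembl release 115 (17896 genes and 23309 TSS positions on the 6 arms, pseudogenes and transposable elements left out). The host was the gene whose transcript end lay nearest downstream. Shares were compared by Fisher's exact test, two-sided, odds ratios with 95% Wald intervals, Benjamini-Hochberg adjusted at 0.05 over 20 comparisons (5 measures, 4 comparators), 6 splits or 12 words. GC strata (20) used the Mantel-Haenszel odds ratio. Geometry and words were set beside all bases that meet the rule, without a test. Scripts were tested on simulated data (scipy 1.17.1, pandas 2.3.3, numpy 2.4.6 and matplotlib 3.10.9 in Python 3.11.15). Alternatives were other TSS limits, overlaps and lists, and each replicate alone.

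The peaks, lists and words were chosen with earlier results of these data known. Named genes are the hosts of all IDR peaks, the 10 strongest peaks, hosts with 4 or more peaks, up to 4 hosts per list, the 5 peaks of largest rank difference, the IDR peaks nearest and farthest from the gene end and the peaks next to the TSS limit.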

Additional observations from a re-analysis of the deposited data

How the results depend on the processing

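Of 172 odds ratios under an alternative setting, 168 kept their direction and their side of the threshold. The exceptions concern replicate overlap. The replicate 2 overlap against introns, with an odds ratio of 0.751, was 0.832 with a TSS limit of 1000 bp and no longer passed (adjusted p = 0.0576 by Fisher's exact test), and that against coding exons, 1.88, was 1.27 in GC strata. The replicate 1 overlap against coding exons, 0.931, was 1.17 in GC strata, where it did not pass either, and 2.70 when only replicate peaks with a q-value under 0.05 were counted, where it passed (adjusted p = 4.41e-15 by Fisher's exact test). The cause was not tested in these 4. The odds ratio for the IDR list against all other peaks stayed below 1 and passed in all 10 settings, from 0.124 without replicate 1 to 0.337 without replicate 2, with 0.240 in GC strata and 0.20 for the top 1000 peaks. The number of 3′ UTR peaks was 802 and 548 with TSS limits of 250 and 1000 bp, 630 outside second genes, 1056 without replicate 1 and 634 without replicate 2, and 702 with TSSs of pseudogenes and transposable elements, an alternative chosen after seeing the data. No paired analysis was possible because the 2 samples form 1 group. With 25 peaks in the IDR list, shares within it are imprecise.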
